A study of Zea mays with 6 samples.

Results

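A set of 128 genes of the young maize tassel was at least 2 times higher in Bif1Bif4 plants than in wildtype plants and already expressed in wildtype. The genes were chosen by their values. The wildtype mean had to be at least 50 normalized counts, the ratio of the group means (Bif1Bif4 over wildtype, 1 added to each mean) at least 2, and the lowest Bif1Bif4 library above the highest wildtype library. Of 39305 genes in the deposited table, 18510 had a wildtype mean of at least 50, and 206 of these had a ratio of at least 2. Every Bif1Bif4 library lay above every wildtype library in 12.6% of all tested genes. In 71 of the 206 the libraries of the groups overlapped, which left 135, and 7 further genes were left out by name. A normalized count is a read count divided by the size factor of its library, and it is not corrected for gene length.

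The Bif1Bif4 group was 3 libraries of 10 pooled tassels each from Bif1;Bif4 double heterozygous plants, and the wildtype group was 3 libraries of 5 pooled tassels each. All plants were in the B73 background and grown in a greenhouse, and the tassels were 2 to 4 mm long. The libraries held 23066609 to 23431863 reads in Bif1Bif4 and 21047225 to 24636859 in wildtype. Wildtype replicate 2 stood apart in some genes, being over 2 times the mean of the other wildtype libraries in 2.67% of the genes with a wildtype mean of at least 50, against 0.443% for wildtype replicate 1 and 0.330% for replicate 3. Nothing in the labels says that the pools were grown separately, so the spread between them may be technical.

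The Barren inflorescence genes mutated here encode Aux/IAA proteins, which hold auxin response factors in check until auxin triggers their destruction. In grasses, auxin marks the flanks of the inflorescence meristem where branches and spikelets start, and dominant mutations of this kind leave fewer of them. The tassel is the male inflorescence, and its spikelets are wrapped by bract-like glumes. In whole tassels, more cells that express a gene and more RNA per cell cannot be told apart.

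Of the young inflorescence markers looked up, 9 of 12 were found and all 9 passed the filter on low values, with a summed level of 16558 to 20526 normalized counts in Bif1Bif4 and 17049.9 to 21554 in wildtype. With limma, the test used across all genes, 6 of the 9 fell and 0 rose (adjusted p under 0.05), where 2.91% of all tested genes fell and 2.13% rose. The set of raised genes contains 1 of them, ub3, which had 7896, 6049 and 6022 normalized counts in Bif1Bif4 and 3441, 1898 and 4373 in wildtype. It is a large part of the sums, so their overlap does not show that the other markers kept their level. Leaf photosynthesis markers (8 of 10 found, none of them a raised gene) summed to 1129 to 1475 in Bif1Bif4 and 1034 to 1141 in wildtype. Anther and tapetum markers (3 of 7 found, of which 1 was tested and fell) summed to 1994 to 2149 in Bif1Bif4 and 2762 to 3263 in wildtype, and vascular markers (5 of 5 found, 1 of them at 0 in every library) to 1754 to 1876 in Bif1Bif4 and 1626 to 1757 in wildtype. The endosperm factor gene o2 was at 0 in every library. Some names recur among those found (rbcS and pep1 for leaf, cesa11 for vascular), so these tallies may count matched genes and not list entries. What part such differences in tissue have in the raised genes was not tested.

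The ratios of the 128 genes ran from 2.01 to 6.70 with a median of 2.35, and the median log2 ratio was 1.23, against 0.00063 over the 21924 genes tested. Most lay near the lower limit. There were 81 genes with a ratio of 2 to 2.5, 22 of 2.5 to 3, 12 of 3 to 4 and 13 of 4 or more. The genes also tended to be of moderate read count. Their wildtype means lay between 50.3 and 6355 normalized counts with a median of 129, and 50 of the 128 were under 100. Together the set took 0.424%, 0.476% and 0.459% of the normalized counts in Bif1Bif4 replicates 1 to 3 and 0.186%, 0.205% and 0.175% in wildtype replicates 1 to 3.

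**Figure D1:**
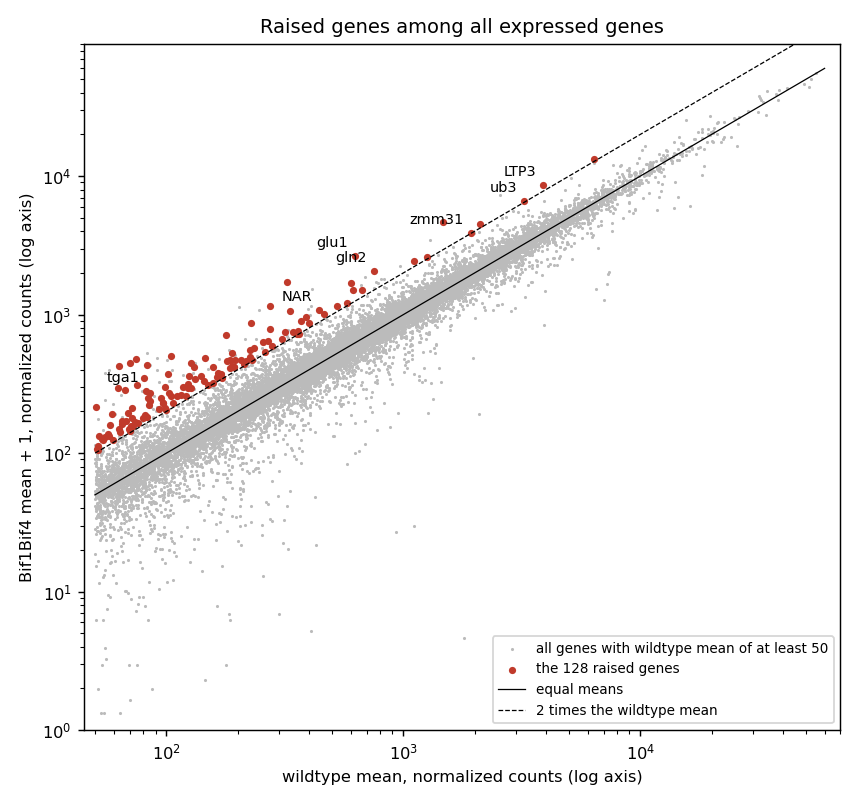
Mean normalized counts of 3 Bif1Bif4 libraries (plus 1, vertical log axis) against those of 3 wildtype libraries (horizontal log axis) for each gene with a wildtype mean of at least 50. The 128 raised genes, in red, lie on or above the dashed line of a doubled wildtype mean and thin out above a ratio of 3.

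Because the rule used this contrast, tests of it on these genes are no further evidence. For description, limma called 79 of the 128 risen (Benjamini-Hochberg adjusted p under 0.05), where it called 2.13% of all 21924 tested genes risen. Among genes with an informative name, limma did not call glu1, tga1, HIT2, thi1-2, MPK4, sus2, PSK4, cko2, MADS34, pDCT1, ub3, zmm31 or NIP1-1. The edgeR quasi-likelihood test on the recovered reads called 73 (1.95% of all). By the authors' deposited table, 124 of the 128 had an adjusted p under 0.05, where 4.26% of the genes with a value there were risen at that level. The 4 others, GRMZM2G159500, GRMZM2G053720, GRMZM2G014844 and GRMZM2G132547, had an adjusted p of 0.18, 0.24, 0.33 and 0.071 in the authors' deposited table. The authors' log2 fold changes for these were 0.42, 0.38, 0.35 and 0.63, smaller than their log2 ratios of 2.36, 2.07, 1.67 and 1.06. Each of the 4 had 1 wildtype library far from the other wildtype libraries.

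Transcription factor genes made up the part of the set best known from inflorescence work, with 3 genes of the SBP box family. The SBP gene tga1 (teosinte glume architecture1, GRMZM2G101511), which set how the glume encloses the kernel during maize domestication, was at 238, 241 and 367 normalized counts in Bif1Bif4 replicates 1 to 3. In wildtype replicates 1 to 3 it was at 74.9, 131 and 41.3. The ratio was 3.40, the highest of the 3 SBP genes, and the highest wildtype pool, replicate 2, stayed well below the lowest Bif1Bif4 pool. The second, sbp2 (GRMZM2G168229), had 176, 169 and 237 normalized counts in Bif1Bif4 and 51.7, 81.5 and 73.2 in wildtype. Here each Bif1Bif4 library was more than 2 times the highest wildtype library.

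The third SBP gene, ub3 (unbranched3, GRMZM2G460544), acts on branch number in the tassel and restrains row number in the ear. It had 7896, 6049 and 6022 normalized counts in Bif1Bif4 and 3441, 1898 and 4373 in wildtype, a ratio of 2.06. The wildtype pools of ub3 spread more than the Bif1Bif4 pools, with coefficients of variation of 16.1% in Bif1Bif4 and 38.6% in wildtype. Limma called 2.13% of all genes risen and 2.91% fallen. That share risen includes raised genes of the set, which the 19 other SBP genes tested leave out, so the shares are not compared. Among the 19, limma called 1 risen and 2 fallen, and 16 did not pass. The risen one was sbp29, with 12482 ± 891 normalized counts in Bif1Bif4 and 6406 ± 1276 in wildtype (SD, n = 3 each; limma log2 fold change 0.98, SE 0.14, adjusted p = 0.0085). Of the 19 others, 9 had a ratio above 1.

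Both MADS box genes of the set carried a large read count. zmm31 (GRMZM2G071620) was at 4498, 3633 and 3588 normalized counts in Bif1Bif4 and at 2133, 1234 and 2434 in wildtype. MADS34 (GRMZM2G137510) had 1300.1, 1055 and 1121 in Bif1Bif4 and 598, 292 and 686 in wildtype. In both genes, as in ub3, wildtype replicate 2 was the lowest library of all 6. MADS box factors set floral organ and meristem identity. Of the 15 other tested MADS genes 3 rose, 5 fell and 7 did not pass limma, and 2 of the risen ones meet the thresholds of the set but are among the 7 genes left out by name. The third, a gene listed as MADS7 and MADS8 (GRMZM2G099522), was at 46.6 ± 24.7 normalized counts in Bif1Bif4 and at 2.20 ± 2.91 in wildtype (SD, n = 3 each), well under the wildtype minimum of the set.

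The LOB domain genes LOB14 and LOB15, of a plant family of transcription factors named for organ boundaries, stood in the set while others of the family fell. LOB14 (GRMZM2G044902) was the steadiest of all 128 genes in wildtype, at 229, 224 and 224 normalized counts, and had 591, 591 and 475 in Bif1Bif4. LOB15 (GRMZM2G060544) had 192, 466 and 198 in Bif1Bif4 and 68.3, 90.6 and 42.3 in wildtype, so the size of its ratio of 4.21 leaned on replicate 2 of Bif1Bif4. LOB15 was called by limma (adjusted p = 0.045) but not by edgeR (adjusted p = 0.055). Of the 3 other tested LOB genes 2 fell, 0 rose and 1 did not pass limma. Both falls were also called by edgeR, which called no other gene of the 3, and 2 had an unadjusted limma p under 0.05. They were ial1 (LOB31), at 14.4 ± 1.94 normalized counts in Bif1Bif4 and 50.3 ± 9.21 in wildtype, and LBD6 (IG1, indeterminate gametophyte1), at 25.8 ± 6.98 in Bif1Bif4 and 66.6 ± 7.36 in wildtype (SD, n = 3 each; limma adjusted p = 0.013 and 0.029). LBD6 was not called without wildtype replicate 2 (limma adjusted p = 0.052).

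Nkd2 (naked endosperm2, IDD9, GRMZM5G884137), a zinc finger gene known for its role in the aleurone layer of the kernel, was measured at 439, 352 and 434 normalized counts in Bif1Bif4 and 187, 189 and 183 in wildtype. Its duplicate Nkd1 (GRMZM2G129261) is not in the set, with 422, 444 and 546 in Bif1Bif4 and 328, 178 and 269 in wildtype. The groups did not overlap for Nkd1 either, but it missed the threshold with all libraries (limma log2 fold change 0.90, SE 0.22, adjusted p = 0.065) and passed it without wildtype replicate 2 (adjusted p = 0.040). How the authors' counting split reads between such duplicates is not given in the sources used here.

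**Figure D2:**
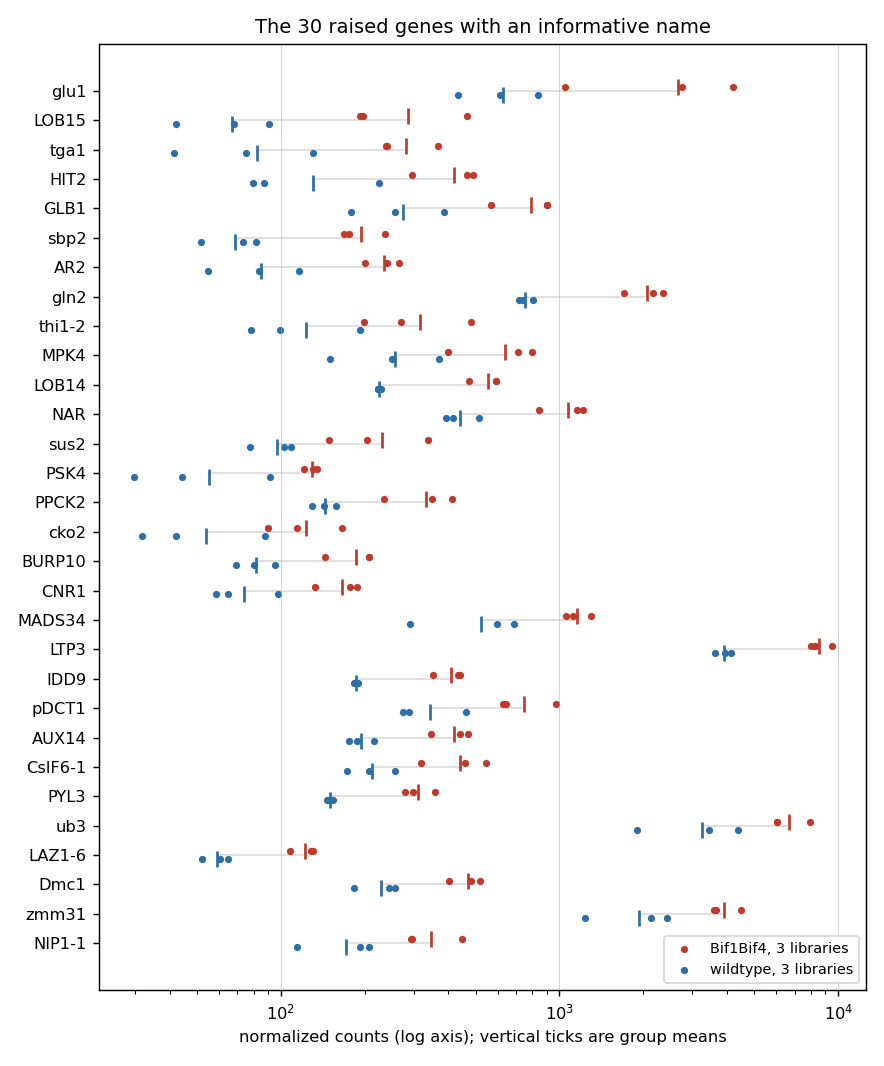
Normalized counts (log axis) of the 30 raised genes with an informative name, from the largest ratio at the top to the smallest, with 3 Bif1Bif4 libraries in red and 3 wildtype libraries in blue and the group means as vertical ticks. The Bif1Bif4 points lie right of all wildtype points in every row, by a wide gap in gln2, LOB14 and sbp2 and by a narrow one in cko2, thi1-2 and MPK4.

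Nitrogen and carbon metabolism supplied several of the named genes. The glutamine synthetase gene gs1-2 (gln2, GRMZM2G024104), whose enzyme fixes ammonium into glutamine, had 1702, 2157 and 2345 normalized counts in Bif1Bif4 and 719, 806 and 738 in wildtype. The nitrate reductase gene NAR (GRMZM5G878558), for the first step of nitrate assimilation, had 1213, 1160.1 and 848 in Bif1Bif4 and 392, 415 and 516 in wildtype. The groups were well apart for both, with standard deviations of 330.5 for gs1-2 and 197 for NAR in Bif1Bif4 and 46.0 for gs1-2 and 65.9 for NAR in wildtype (n = 3 each). Of the 11 other tested genes of nitrogen assimilation, 8 had a ratio above 1 but 0 passed limma and 0 edgeR, with 6 at an unadjusted limma p under 0.05. Without wildtype replicate 2 limma called 3 of the 11 risen and 1 fallen, and the 3 were gln4, gln5 and asn2 (limma adjusted p = 0.011, 0.042 and 0.024 without it, and 0.21, 0.13 and 0.39 with all libraries). The fallen one was GLN6 (limma adjusted p = 0.021 without it and 0.16 with all libraries). The first of these, gln4 (gs1-3), was at 2279.6, 2857 and 3091 normalized counts in Bif1Bif4 and at 1432, 2409.9 and 1103 in wildtype.

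Among carbon genes, PPCK2 (GRMZM2G135091), the kinase that activates phosphoenolpyruvate carboxylase, had 410.0, 234 and 350.2 normalized counts in Bif1Bif4 and 159, 129 and 143 in wildtype. The sucrose synthase gene sus2 (GRMZM2G318780) had 204, 338 and 149 in Bif1Bif4 and 109, 77.8 and 103 in wildtype. The plastid dicarboxylate transporter gene pDCT1 (GRMZM2G040933) had 626, 968 and 646 in Bif1Bif4 and 464, 289 and 275 in wildtype. The order of the Bif1Bif4 pools differed among these genes, with replicate 1 highest for PPCK2 and replicate 2 for sus2 and pDCT1. Of 5 other tested genes of sucrose breakdown, 1 rose, the cell wall invertase gene incw1 (85.4 ± 20.2 normalized counts in Bif1Bif4 and 21.1 ± 5.63 in wildtype, SD, n = 3 each; limma adjusted p = 0.010), and 4 did not pass limma. One of the 4, the invertase gene ivr2, rose when wildtype replicate 2 was left out (limma adjusted p = 0.00098, against 0.56 with all libraries), with 189, 127 and 173 normalized counts in Bif1Bif4 and 26.4, 363 and 20.6 in wildtype. The sucrose synthase genes sh1 and sus1, which take far more reads than sus2, had limma log2 fold changes of 0.13 (SE 0.14) and 0.06 (SE 0.12).

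Hormone-related members were few. The cytokinin oxidase gene cko2 (GRMZM2G050997), whose enzyme breaks cytokinin down, had 90.4, 114 and 166 normalized counts in Bif1Bif4 and 31.9, 87.9 and 42.3 in wildtype, and its groups were parted by a narrow gap. The abscisic acid receptor gene PYL3 (GRMZM2G047677, also listed as PYL4) had 279, 357 and 297 in Bif1Bif4 and 146, 155 and 149 in wildtype. Another gene listed as PYL3 (GRMZM2G154987) is not in the set, at 25.8 ± 9.24 in Bif1Bif4 and 41.4 ± 7.35 in wildtype (SD, n = 3 each). AUX14 (GRMZM2G077356) had 471, 347 and 440.3 in Bif1Bif4 and 187, 217 and 176 in wildtype, and symbols of the AUX kind name more than 1 sort of auxin gene. For GRMZM2G047677 and AUX14 the highest wildtype library was well below the lowest Bif1Bif4 library. None of the 5 other tested cytokinin oxidase genes and none of the 7 other tested receptor genes of the PYL kind passed limma or edgeR. At an unadjusted limma p under 0.05 there were 2 of these cytokinin oxidase genes and 1 of these receptor genes. The raised gene cko2 did not pass either (limma adjusted p = 0.12, edgeR adjusted p = 0.15). Of the 17 other tested genes with an AUX or IAA symbol, limma called 1 risen and 4 fallen, and 12 did not pass. The risen one, AUX6, had 4134 ± 621 normalized counts in Bif1Bif4 and 2562 ± 149 in wildtype (SD, n = 3 each; limma adjusted p = 0.015). The fallen ones were AUX1, AUX34, AUX9 and the mutated gene BIF1 itself (AUX22, GRMZM2G130953), which was at 267, 166 and 158 in Bif1Bif4 and at 649.6, 818 and 748 in wildtype (limma log2 fold change -1.94, SE 0.21, adjusted p = 0.0029). AUX9 was not called without wildtype replicate 2 (limma adjusted p = 0.095) or by edgeR (adjusted p = 0.054).

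Growth and cell wall genes included CNR1 (cell number regulator1, GRMZM2G015941), known to limit plant and organ size through cell number. It had 177, 188 and 133 normalized counts in Bif1Bif4 and 98.0, 65.0 and 58.8 in wildtype. CslF6-1 (GRMZM2G110145), a synthase of mixed-linkage glucan in grass walls, had 459.6, 546 and 318 in Bif1Bif4 and 258, 208 and 172 in wildtype. CslF6-1 was called by limma with all libraries (adjusted p = 0.043) but not without wildtype replicate 2 (limma adjusted p = 0.085). The lipid transfer protein gene LTP3 (GRMZM2G126397) had one of the largest read counts of the set, with 9468, 7974 and 8265 in Bif1Bif4 and 3919.7, 4124 and 3628 in wildtype. LTP3 also varied little, with a coefficient of variation of 9.25% in Bif1Bif4 and 6.41% in wildtype. BURP10 (GRMZM2G446170), a BURP domain gene, had 144, 207 and 207 in Bif1Bif4 and 80.4, 95.2 and 69.1 in wildtype, while of 5 other tested BURP genes BURP4 fell (9.81 ± 3.37 in Bif1Bif4 and 29.6 ± 2.95 in wildtype, SD, n = 3 each; limma adjusted p = 0.041) and 4 did not pass. BURP4 was not called without wildtype replicate 2 (limma adjusted p = 0.057).

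Other named members had roles in defence, meiosis and cofactor synthesis. The beta-glucosidase gene glu1 (GRMZM2G016890), whose enzyme frees benzoxazinoid defence compounds from their stored sugar form, had the largest ratio of the 30 genes with an informative name, 4.24. It was at 1045, 4210.2 and 2750.1 normalized counts in Bif1Bif4 and at 839, 434 and 611 in wildtype, so replicate 1 of Bif1Bif4 lay close to wildtype. The meiotic recombinase gene Dmc1 (GRMZM2G109618) had 521, 484 and 401 in Bif1Bif4 and 246, 184 and 257 in wildtype. Of 9 other tested genes of meiotic recombination 0 passed limma or edgeR, 2 had an unadjusted limma p under 0.05, and 2 had a ratio above 1. The hemoglobin gene GLB1 (GRMZM2G067402) had 566, 904 and 902 in Bif1Bif4 and 258, 178 and 385 in wildtype. The thiamine synthesis gene thi1-2 (GRMZM2G074097) had 270.1, 199.6 and 480.4 in Bif1Bif4 and 99.1, 192 and 78.4 in wildtype, which left its groups almost touching. The mitogen-activated protein kinase gene MPK4 (GRMZM2G053987) had 710.3, 798 and 398 in Bif1Bif4 and 369, 249.9 and 151 in wildtype, and again the groups nearly met. Of genes whose symbols do not fix a role, HIT2 (GRMZM2G126765) had 295, 492 and 465 in Bif1Bif4 and 87.0, 226 and 79.4 in wildtype. AR2 (GRMZM2G059314) had 200.2, 241 and 265 in Bif1Bif4 and 83.7, 116 and 54.7 in wildtype, and PSK4 (GRMZM2G031261) had 121, 131 and 135 in Bif1Bif4 and 29.7, 91.5 and 44.4 in wildtype. In these 3 genes wildtype replicate 2 was the highest wildtype library, while in LAZ1-6 (GRMZM2G071688), with 108, 131 and 128 in Bif1Bif4 and 60.6, 52.2 and 65.0 in wildtype, it was the lowest. The NOD26-like aquaporin gene NIP1-1 (GRMZM2G041980) had 296, 294 and 448 in Bif1Bif4 and 208, 192 and 115 in wildtype. Of 14 other tested aquaporin genes 1 fell, the silicon channel gene NIP2-1 (limma log2 fold change -2.40, SE 0.53, adjusted p = 0.044), and 13 did not pass.

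Over all 16 families that a named gene belongs to, 122 other genes were tested, of which limma called 6 risen and 15 fallen. Of all genes tested, 2.13% rose and 2.91% fell. That share risen includes raised genes of the set, which were taken out of the 122, so the 6 cannot be judged by it. The 9 families in which limma called 0 others had 44 other genes tested. They were picked for that 0, so it is no result of a test. In them edgeR also called 0 others, and 15 of the 44 had an unadjusted limma p under 0.05. The share of all genes at that unadjusted level was not worked out, so nothing is read from the 15. Without wildtype replicate 2 limma called 4 of the 44 risen and 1 fallen.

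Most of the set has no name. RefSeq listed exactly 1 gene for 102 of the 128 identifiers, 101 of them protein-coding and 1 a transcribed pseudogene (GRMZM2G106552). Another identifier, GRMZM2G074238, matched more than 1 RefSeq gene and 25 matched none. An informative name was held by 30 of the 128 (23.4%), and by 10.1% of the tested genes with a wildtype mean of at least 50. The genes placed in RefSeq also spanned less sequence, introns included, with a median length of 2602.5 bases, against 4158 over the 1-to-1 matched tested genes with the same wildtype minimum.

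The largest ratios belonged to genes without a name except glu1. GRMZM2G085086 led with a ratio of 6.70, from 395, 699 and 189.8 normalized counts in Bif1Bif4 and 108, 58.6 and 22.7 in wildtype. It was not called by limma, and the authors' log2 fold change for it was 0.68, where its log2 ratio was 2.74. It was also the most variable of the set among the Bif1Bif4 pools, with a coefficient of variation of 59.9%. GRMZM2G370425 had 395, 412 and 626 in Bif1Bif4 and 52.8, 95.2 and 74.3 in wildtype. GRMZM2G064096 had 419.8, 381 and 527 in Bif1Bif4 and 83.7, 44.8 and 82.5 in wildtype, and its lowest Bif1Bif4 library was 4.52 times its highest wildtype library (1 added to each), the widest gap of the set. GRMZM2G471089 was at 1831, 1741 and 1571 in Bif1Bif4 and 322, 212 and 439 in wildtype. In these 3 genes and GRMZM2G175253 (261, 355 and 267 in Bif1Bif4 and 62.8, 55.8 and 69.1 in wildtype) the gap was over 3.5 times, and over the whole set its median was 1.52 times. Of the rest of the 10 largest ratios, GRMZM2G420571 had 311, 539 and 644 in Bif1Bif4 and 69.4, 177 and 68.1 in wildtype, and GRMZM2G105954 had 305, 341 and 399 in Bif1Bif4 and 83.7, 115 and 43.3 in wildtype. The remaining 2 had a single high wildtype pool, replicate 2, and limma called neither. GRMZM2G159500 was at 407, 313 and 568 in Bif1Bif4 and at 23.1, 197 and 28.9 in wildtype, and GRMZM2G053720 was at 929, 1452 and 1087 in Bif1Bif4 and at 152, 619 and 50.5 in wildtype. In 17 of the 128 the gap was at least 2 times, and in 11 it was under 1.1 times.

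**Figure D3:**
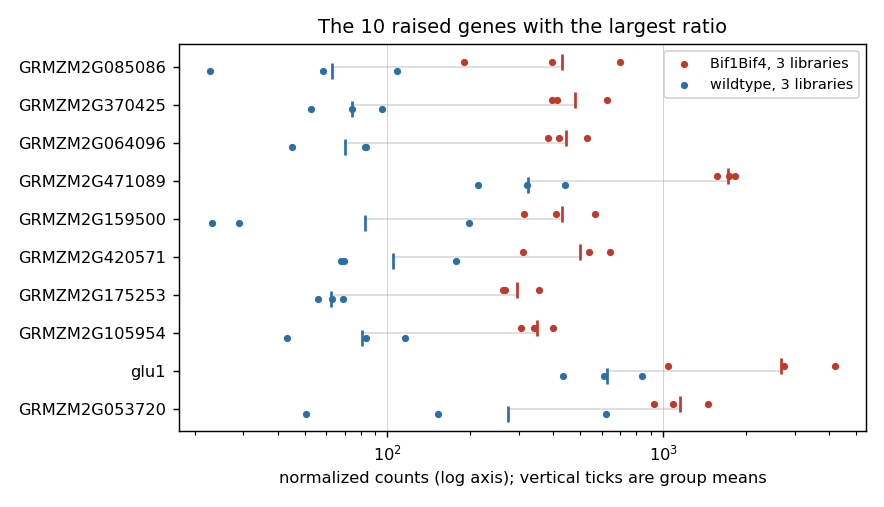
Normalized counts (log axis) of the 10 raised genes with the largest ratio, with 3 Bif1Bif4 libraries in red and 3 wildtype libraries in blue and the group means as vertical ticks. GRMZM2G159500 and GRMZM2G053720 each have 1 wildtype point, at 197 and 619 normalized counts, far right of the other wildtype points.

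The gene with the largest read count was GRMZM2G132547, with 9889.8, 14452 and 15493 normalized counts in Bif1Bif4 and 5338, 9373 and 4354 in wildtype. It held 12.9% of the summed Bif1Bif4 means of the set, and wildtype replicate 2 came close to Bif1Bif4 replicate 1. GRMZM2G014844 had 3782, 4913 and 5338 in Bif1Bif4 and 1726, 2477 and 206 in wildtype, where replicate 3 was low. GRMZM2G165944 had 3919.8, 5205 and 4309.6 in Bif1Bif4 and 2605, 2072 and 1650.5 in wildtype. GRMZM2G064386 was among the steadier genes, with 2453 ± 130.4 in Bif1Bif4 and 1113 ± 90.2 in wildtype, and GRMZM2G111903 had 2589 ± 493 in Bif1Bif4 and 1254 ± 199.8 in wildtype (SD, n = 3 each).

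For the 79 genes picked out by none of name, ratio, level, spread or nearness to a limit, the ratios lay between 2.02 and 4.07 with a median of 2.38, and the Bif1Bif4 means between 105 and 1680.2 normalized counts. Genes at the edges of the rule differed little across it. The last 3 inside the ratio limit, GRMZM2G148387, GRMZM2G060079 and NIP1-1, had ratios of 2.02, 2.01 and 2.01, and the first 3 outside, hdz10 (GRMZM2G041127), GRMZM2G098319 and GRMZM2G173472, had 1.997, 1.996 and 1.99. At the wildtype limit, GRMZM2G033555, GRMZM2G000451 and GRMZM5G801949 had wildtype means of 50.3, 50.8 and 51.2 normalized counts, and GRMZM2G409128, GRMZM2G107380 and GRMZM2G049077, which met the other limits and fell just outside this one, had 49.4, 49.2 and 48.0.

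Within their own group the raised genes spread more than other genes. The median coefficient of variation was 19.0% in Bif1Bif4 and 28.3% in wildtype, against 7.15% in Bif1Bif4 and 10.1% in wildtype over the 18510 tested genes with a wildtype mean of at least 50. For the 267 genes with the same wildtype minimum and no overlap but a ratio of 1.5 to 2, it was 13.6% in Bif1Bif4 and 15.4% in wildtype. These are descriptions, since the values that set the spread also set the ratio.

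The spread had a shape. In 37 of the 128 genes Bif1Bif4 replicate 3 was the highest Bif1Bif4 library and wildtype replicate 2 the highest wildtype library, which is 28.9% of the set, against 15.4% of the 18510 tested genes and 16.5% of the 267. Among the 37 were tga1, sbp2, gs1-2, cko2, BURP10, PSK4, thi1-2 and AR2. In another 24 genes (18.8%, against 16.2% and 15.7%) Bif1Bif4 replicate 2 and wildtype replicate 1 were highest. That share is near those of the 18510 and the 267, so it is not read as a trait of the set. The 24 included glu1, MPK4, LOB14, sus2, CNR1, pDCT1 and CslF6-1. In LOB14, Bif1Bif4 replicates 1 and 2 were nearly equal, and so were all wildtype libraries. In the first pattern wildtype replicate 2 was a median 1.93 times the mean of the other wildtype libraries and Bif1Bif4 replicate 3 was 1.28 times the mean of its companions. In the second, Bif1Bif4 replicate 2 was 1.47 times and wildtype replicate 1 was 1.46 times theirs. Wildtype replicate 2 was over 2 times the mean of the other wildtype libraries in 22 of the 128 genes (17.2%, against 2.67% of the 18510).

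**Figure D4:**
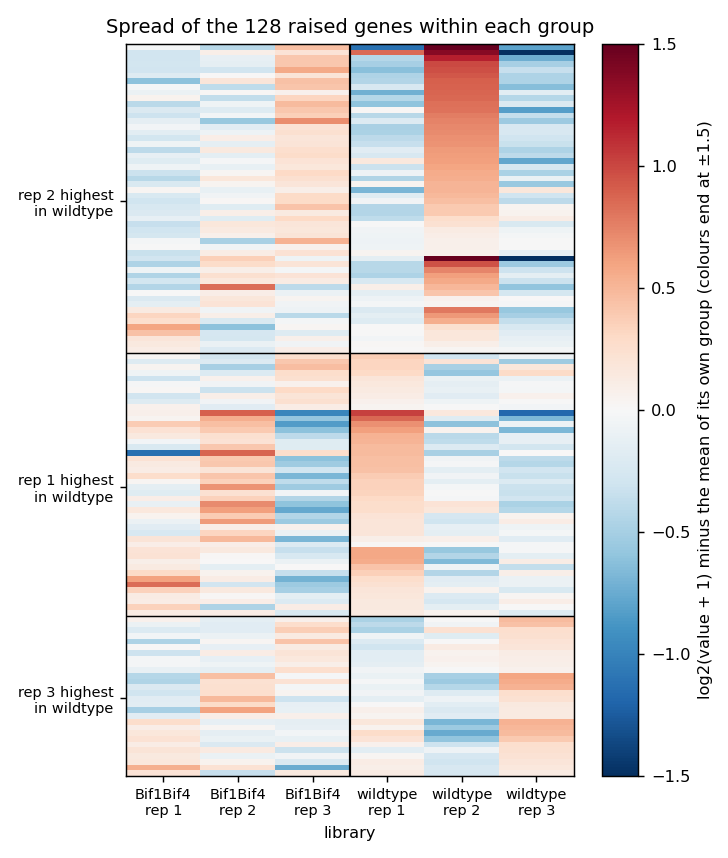
Deviation of log2(normalized count + 1) from the mean of its own group for the 128 raised genes (rows), in 3 Bif1Bif4 and 3 wildtype libraries (columns), with rows grouped by the wildtype library that is highest. In the upper block (54 genes) wildtype replicate 2 is red, and Bif1Bif4 replicate 3 is the highest Bif1Bif4 library in 37 of its rows. In the middle block (46 genes) Bif1Bif4 replicate 3 is the lowest in 29.

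The set depended on single libraries. Without wildtype replicate 2, 104 of the 128 genes still met the rule and 100 further genes met it, so that 204 did in all. Without Bif1Bif4 replicate 3 the numbers were 112 and 126, and without wildtype replicate 1 they were 109 and 86. Over the 3 other libraries left out in turn, 106 to 112 of the 128 stayed and 27 to 38 genes were added. With fewer libraries the groups overlap less easily. In limma without wildtype replicate 2, 96 of the 128 were called risen, where 3.45% of all genes tested were. Of the 37 genes with wildtype replicate 2 and Bif1Bif4 replicate 3 highest, 35 were called, against 20 with all 6 libraries. Of the 24 with wildtype replicate 1 and Bif1Bif4 replicate 2 highest, 6 were called, against 10. The 37 were grouped by their high wildtype replicate 2, so leaving it out raises their ratios, and nothing is read from these counts. Of the 49 genes picked out by name, ratio, level, spread or nearness to a limit, 7 had a ratio that moved by over 1.5 times with a library left out. Without wildtype replicate 2 it was 15.9 for GRMZM2G159500, 11.3 for GRMZM2G053720, 7.46 for GRMZM2G033555, 7.16 for GRMZM2G420571, 4.97 for HIT2 and 4.84 for GRMZM2G014844, where all libraries gave 5.13, 4.21, 4.19, 4.72, 3.17 and 3.18. For GRMZM2G085086 it was 10.3 without wildtype replicate 1.

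**Figure D5:**
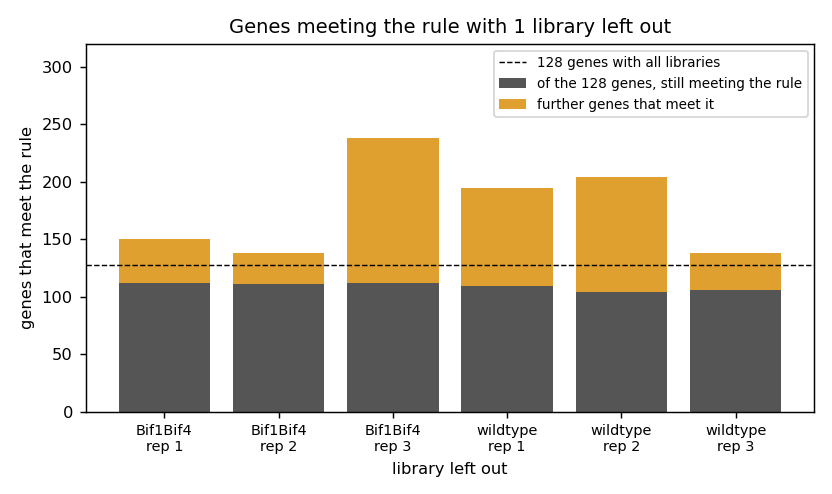
Number of genes that meet the rule (vertical axis) when the library named on the horizontal axis is left out, split into genes of the set of 128 (grey) and further genes (orange). Grey bars stand at 104 to 112 for all 6 libraries, and the orange part is largest without Bif1Bif4 replicate 3, at 126 genes.

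Gene order was read from RefSeq (assembly Zm-B73-REFERENCE-NAM-5.0) for neighbours only. No 2 of the 102 placed genes were immediate neighbours. The closest pair was glu1 and GRMZM2G014844, with 3 genes between them, and the libraries ranked differently in the pair. In wildtype glu1 was lowest in replicate 2, while GRMZM2G014844 was highest there. GRMZM2G122053 and GRMZM2G004060 had 7 genes between them, and GRMZM2G173534 and GRMZM2G142315 had 10.

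One raised gene lies next to a mutated gene. GRMZM2G051806 and BIF4 (GRMZM5G864847) had 0 genes between them in that order, and GRMZM2G051619 was 29 genes away. These were looked at after their values were seen. GRMZM2G051806 had 379, 702 and 504 normalized counts in Bif1Bif4 and 168, 127 and 271 in wildtype, a ratio of 2.79, and limma did not call it. GRMZM2G051619 had 199, 426 and 260.2 in Bif1Bif4 and 129.9, 105 and 135 in wildtype, a ratio of 2.38. In both genes replicate 2 was the highest Bif1Bif4 pool. Within 50 genes on either side of BIF4 there were 2 of the 102 placed raised genes (1.96%) and 23 of the 14452 placed tested genes (0.159%). Of the placed genes that limma called, this window held 1 of 339 risen and 1 of 444 fallen. Within 200 genes there were 3 raised genes (2.94%) and 136 tested genes (0.941%), and limma called 3 genes risen and 3 fallen there. The third raised gene was GRMZM2G064096, with 162 genes between it and BIF4. Near BIF1 there were 0 raised genes in either window, with 29 tested genes within 50 genes and 112 within 200. Of these limma called 2 risen and 1 fallen within 50 genes, and 4 risen and 7 fallen within 200. What part the chromosome segments around the mutations have in these values was not tested.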

How the data were processed

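Messenger RNA libraries of 6 tassel pools were analysed, with groups and replicate numbers from the sample titles. Stranded libraries were made, per the labels' protocols. The submitters' processing notes name TopHat2 (2.1.1), HTSeq, Trimmomatic and DESeq2. Which genome build, annotation and strand setting the counting used is not given in the sources used here.

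The table deposited by the authors holds read counts divided by a size factor per library, treated as a signal. It also gives the mean, the authors' log2 fold change, its standard error and Wald statistic (both read as a score), and p-values before and after adjustment. Dividing by the smallest step of each library gave whole reads for 100.0% of values (tolerance 1e-06). The limit for a count of 0, taken as 3 reads, was 2.75 to 3.30 normalized counts and covers counting error only.

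Values were tested as log2(value + 1) with limma 3.58.1 (trend, robust) for the 21924 genes with at least 10 in at least 3 libraries, two-sided, with Benjamini-Hochberg adjustment over all of them. Alternatives used edgeR 4.0.16 and DESeq2 1.42.0 on recovered reads, and the limma code was tested on simulated data. Computation used R 4.3.3 and Python 3.11.15. The genes and lists were chosen with earlier results of these data known. Named are the 10 genes of largest ratio, the 10 of largest Bif1Bif4 mean, all with an informative RefSeq name (names of clones, ESTs and markers not counted), the 3 most variable in Bif1Bif4, immediate neighbours of each other in RefSeq order (none were found), and those at the edges of the rule. Pairs further apart and neighbours of BIF4 were chosen after their values were seen. Word patterns on gene descriptions had been planned for families, but the RefSeq table used has symbols only, so families were set by symbol after the genes were known.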

Additional observations from a re-analysis of the deposited data

How the results depend on the processing

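For the 49 genes that the naming rule took, the ratio stayed above 1 under TMM scaling. With a library left out it could not fall below 1, because the rule parts the groups. Of 343 values under TMM scaling and with each library left out, 29 moved by more than the spread of the Bif1Bif4 libraries. Of these 29, 17 came without wildtype replicate 2, 10 without wildtype replicate 3 and 2 without wildtype replicate 1. None came under TMM scaling or with a Bif1Bif4 library left out. Leaving out a Bif1Bif4 library can hardly move a ratio by more than the spread of those same libraries. Stability on the Bif1Bif4 side is therefore not shown by this count. The number of genes meeting the rule, 128, followed its limits. It was 200 with a wildtype mean of at least 20, 78 with at least 100, 199 with a ratio of at least 1.8, 47 with at least 2.5, and 199 with groups allowed to overlap. Leaving out a library gave 138 to 238. The median log2 ratio of 1.23 became 1.29 with a minimum of 20, 1.10 with a ratio of 1.8, 1.66 with a ratio of 2.5, 1.27 with medians and 1.28 with overlap. Those medians are over the genes that met each changed rule. Over the same 128 genes, it was 1.18 to 1.29 with a library left out. By DESeq2 1001 genes rose, 1117 fell and 122 of the 128 were called, and the cause was not tested. Requiring a fold of at least 2 as well left 168 risen and 339 fallen. With 5 libraries in place of 6, between 158 and 745 rose, between 244 and 554 fell, and 42 to 96 of the 128 were called, the fewest without Bif1Bif4 replicate 2 (42), wildtype replicate 3 (44) or Bif1Bif4 replicate 1 (47). With the replicate number as a block 381 genes rose, 429 fell and 83 of the 128 were called. Same-numbered libraries deviated together with correlations of 0.07, -0.17 and -0.03 across genes, so the numbers do not pair the libraries, and no Bif1Bif4 library but replicate 1 correlated best with its own number. Bif1Bif4 replicates 2 and 3 did so with wildtype replicates 1 and 2, at 0.25 and 0.26.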

Other observations

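Some genes of jasmonate synthesis and signalling, a pathway of wounding responses and of tassel sex determination, stood outside the set with all 6 libraries and met its rule without wildtype replicate 2. Of the 100 genes that met the rule only without wildtype replicate 2, 97 had their highest wildtype value in that library, and 68 of the 100 overlapped between the groups with that library included. The jasmonate synthesis genes ts1 (tasselseed1, GRMZM2G104843) and aos1 (allene oxide synthase, GRMZM2G067225) were among them. For ts1 the values were 356, 499 and 173 normalized counts in Bif1Bif4 and 122, 212 and 64.0 in wildtype replicates 1 to 3, a ratio of 2.57 with all libraries. For aos1 they were 316, 549 and 551 in Bif1Bif4 and 203, 1082 and 90.8 in wildtype, a ratio of 1.03. Without wildtype replicate 2 the ratios were 3.65 for ts1 and 3.20 for aos1. TIFY25 (GRMZM2G116614), of the family of jasmonate signalling repressors, had 714, 981 and 838 in Bif1Bif4 and 366, 1000.4 and 138 in wildtype. The factor gene bHLH116 (GRMZM2G042895) had 225, 2659.8 and 534 in Bif1Bif4 and 120.0, 437 and 51.6 in wildtype. These genes were picked after their values were seen, and leaving out a library because of such values would choose the result.

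Of the 71 genes with a ratio of at least 2 whose groups overlapped, 15 were free of overlap without wildtype replicate 2 and 56 were not.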
